A study of Mus musculus with 12 samples.

Results

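The genes described here are the inflammatory CC chemokines Ccl2, Ccl7, Ccl12, Ccl8, Ccl3, Ccl4 and Ccl5 and the receptors Ccr1 and Ccr2. They were taken from the deposited count table by gene identifier, as 9 of its 46603 genes, and all 9 were found. The study measured poly-A RNA of ileum and synovium from TNFdARE mice and from WT littermates, in 4 groups of 3 biological replicates. The groups were TNFdARE ileum, WT ileum, TNFdARE synovium and WT synovium. TNFdARE mice carry a germline deletion of the AU-rich element of Tnf, a sequence that limits the stability and translation of Tnf mRNA, and the strain is used as a model of combined gut and joint inflammation; littermate WT mice have the element. The labels give no treatment and no age, and they do not say whether ileum and synovium came from the same animals. Library totals lay between 14267834 and 16224402 counts, so 1 count corresponded to 0.0616 to 0.0701 CPM, the count scaled to library size, before TMM scaling. Tnf checked the labels: in the ileum it averaged 49.1 ± 32.8 CPM in TNFdARE mice, against 1.88 ± 0.663 CPM in WT mice, and in the synovium 33.1 ± 5.10 CPM in TNFdARE mice, against 2.02 ± 0.128 CPM in WT mice (SD, n = 3 each). Of 6 defining genes of ileum epithelium, all had counts in the 6 ileum libraries, and Slc10a2 and Fgf15 were at 0 in all 6 synovium libraries. Of 5 genes listed for the synovium (Prg4, Clic5, Htra4, Col1a1 and Cdh11), all had counts in the 6 synovium libraries. There they summed to 21035 to 22513 CPM in TNFdARE and 31483 to 48235 CPM in WT. The same genes summed to 591 to 670.1 CPM in TNFdARE ileum, against 681 to 696 CPM in WT ileum. Col1a1, a collagen gene that is also among the fibroblast markers below, made up most of the synovium sums on average. It averaged 17415 CPM in TNFdARE synovium and 25713 CPM in WT synovium, so these sums are not specific to the lining.

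CC chemokines are small secreted proteins that bind receptors on leukocytes and direct their movement into tissue. Ccl2, Ccl7 and Ccl12 act on Ccr2, the receptor that brings monocytes out of bone marrow and into inflamed tissue, while Ccl8 in the mouse acts mainly on Ccr8. Ccl3 and Ccl5 act on Ccr1, among other receptors. Tnf induces several of these ligands in stromal and myeloid cells through NF-κB.

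The 7 ligand genes lie in 2 groups on chromosome 11 of GRCm38. The first group holds Ccl2 (ENSMUSG00000035385, 82035571 to 82037453), Ccl7 (ENSMUSG00000035373, 82045712 to 82047525), Ccl12 (ENSMUSG00000035352, 82101845 to 82103400) and Ccl8 (ENSMUSG00000009185, 82115185 to 82116799), all on the plus strand. The second holds Ccl5 (ENSMUSG00000035042, 83525778 to 83530518, minus strand), Ccl3 (ENSMUSG00000000982, 83647844 to 83649355, minus strand) and Ccl4 (ENSMUSG00000018930, 83662584 to 83664683, plus strand). The receptors lie on chromosome 9, Ccr1 (ENSMUSG00000025804) from 123962124 to 123968692 on the minus strand and Ccr2 (ENSMUSG00000049103) from 124101950 to 124113557 on the plus strand. The values below cover the exons of each gene. No exon of a member overlapped an exon of another gene. Cut into windows of 100 bases, 53 of 6709 windows of Ccr2 were also found in another gene, and no window of the other 8 members was found in another gene.

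Promoter sequences of 5 members (Ccl12, Ccl3, Ccl8, Ccr1 and Ccr2) were matched in RefSeq (build GRCm38.p6). The 250 bases before the transcript start are shown for the neighbours Ccl12 and Ccl8, whose levels were both higher in TNFdARE synovium, and for Ccr1, the sole one of the 5 in which the NF-κB consensus was found. Capitals mark TATAAA in the ligands and the NF-κB consensus match in Ccr1, and each sequence is written 5′ to 3′ on the strand of its gene.
Ccl12, chr11:82101595-82101844, plus strand: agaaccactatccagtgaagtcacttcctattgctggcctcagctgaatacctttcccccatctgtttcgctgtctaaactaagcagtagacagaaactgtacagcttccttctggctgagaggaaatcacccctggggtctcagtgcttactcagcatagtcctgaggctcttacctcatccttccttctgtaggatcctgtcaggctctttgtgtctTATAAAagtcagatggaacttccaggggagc
Ccl8, chr11:82114935-82115184, plus strand: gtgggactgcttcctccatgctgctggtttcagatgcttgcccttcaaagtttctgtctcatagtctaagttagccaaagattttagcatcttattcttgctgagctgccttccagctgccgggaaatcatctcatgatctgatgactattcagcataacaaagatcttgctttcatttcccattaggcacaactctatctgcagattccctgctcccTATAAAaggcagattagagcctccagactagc
Ccr1, chr9:123968693-123968942, minus strand: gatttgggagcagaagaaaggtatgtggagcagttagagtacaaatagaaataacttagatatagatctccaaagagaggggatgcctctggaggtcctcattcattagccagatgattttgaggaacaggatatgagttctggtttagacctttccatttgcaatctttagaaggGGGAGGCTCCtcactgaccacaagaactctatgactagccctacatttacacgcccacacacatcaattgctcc
TATAAA stood at -31 to -26 in Ccl12 and at -32 to -27 in Ccl8, and the NF-κB consensus at -74 to -65 in Ccr1, counted from the transcript start. Over both strands of windows of the same length, 12.4% of 32851 mouse promoters held TATAAA, 7.25% the NF-κB consensus and 6.75% the AP-1 motif TGANTCA. No AP-1 match lay in the windows of the 5 members.

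The 9 genes were higher in the TNFdARE synovium nearly as a set, whereas in the TNFdARE ileum Ccl2 alone passed the test, joined by Ccl7 and Ccr1 in a fit with the replicate number as a block. These calls are not a test between tissues. In such a test, given below, none of the 9 members passed without the block, and 5 of the 9 effects were larger in the synovium. In the synovium 8 of the 9 passed the filter on low counts and all 8 rose, against 13.1% of 15599 genes tested (2037 higher, 1676 lower). Their median log2 fold change of TNFdARE over WT was 2.83, and over all genes tested it was 0.00. Ccl4 was left out by the filter, which a gene can pass through 1 group alone. Ccl3 passed through its TNFdARE libraries, with 62, 27 and 28 counts there and 11, 7 and 10 counts in WT. Ccl4 had 19, 9 and 7 counts in TNFdARE and 10, 5 and 6 counts in WT. The 8 are thus the members the filter kept, and that choice was not independent of a rise. Without the filter Ccl4 did not pass (log2 fold change 0.58, adjusted p = 0.578). In the ileum 8 members passed the filter and 1 rose, against 4.12% of 15462 genes tested (637 higher, 242 lower), while the other 7 did not pass the test; Ccl3 was left out by the filter. Without TNFdARE ileum replicate 2 the same fit called 5 members and 4633 genes in all, and without any of the WT ileum libraries it called 0 members and 0 genes. The members' median log2 fold change there was 1.93, and over all genes tested it was -0.00. Genes were called at an adjusted p of 0.05 from edgeR's quasi-likelihood test, adjusted by Benjamini-Hochberg across every gene in the fit, which is the source of every adjusted p below unless another tool is named. All 3 TNFdARE libraries lay above all 3 WT libraries in 8 members in the synovium, where 20.7% of the genes tested did so, and in 4 members in the ileum, where 18.9% did so. The labels call the libraries biological replicates and say no more of their origin, so the p-values measure the spread between these samples. In whole tissue, fewer cells of a type and less RNA per cell cannot be told apart.

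**Figure D1:**
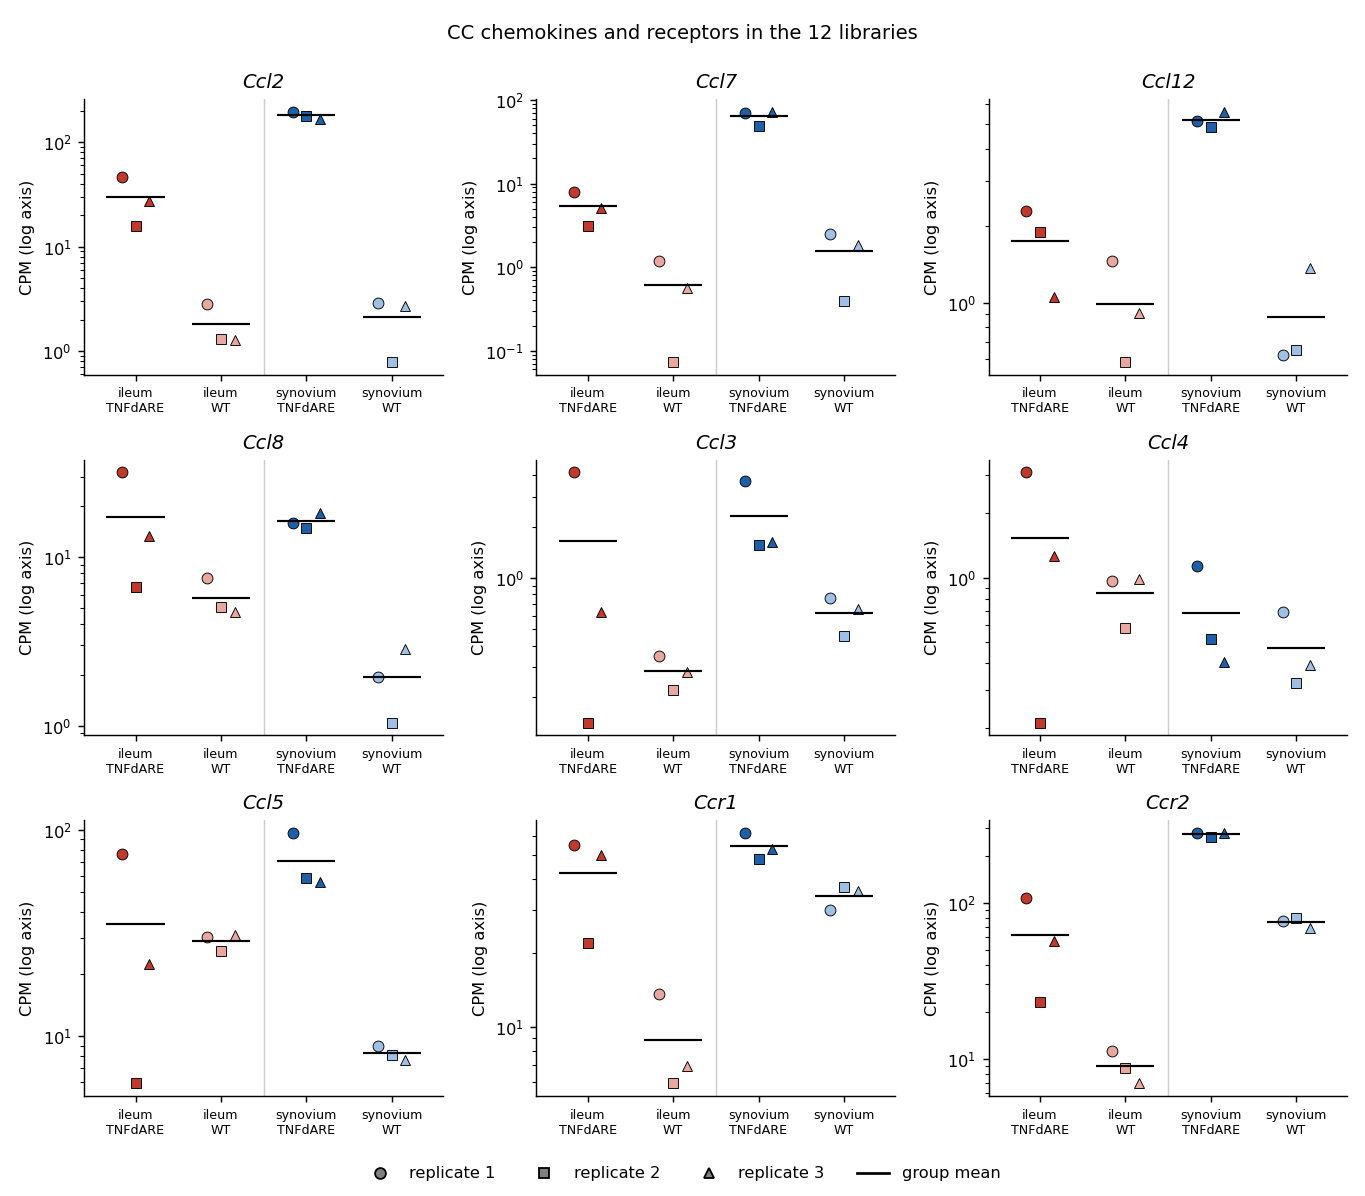
CPM of each member (log axis) in the 12 libraries, with the 4 groups on the x axis, markers for replicates 1, 2 and 3, and bars for group means. The TNFdARE synovium libraries sit above the WT ones in every panel but Ccl4, and replicate 1 is the highest TNFdARE ileum library in all 9 panels.

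Ccl2, the main attractant of Ccr2-bearing monocytes, had the largest log2 fold change of the members tested in both tissues. It had 197, 181 and 166 CPM in the 3 TNFdARE synovium libraries, against 2.91, 0.781 and 2.67 CPM in WT synovium. In the ileum it had 46.7, 15.8 and 27.3 CPM in TNFdARE, against 2.84, 1.31 and 1.27 CPM in WT. The groups did not overlap in either tissue, and the lowest TNFdARE synovium library lay above the highest TNFdARE ileum library. The log2 fold change was 6.45 ± 0.38 in the synovium (SE, adjusted p = 0.000530) and 4.05 ± 0.54 in the ileum (adjusted p = 0.0404). In the ileum Ccl2 did not pass when TNFdARE replicate 3 was left out (adjusted p = 0.155) or when WT replicate 1, 2 or 3 was (0.153, 0.1498 and 0.174), while the log2 fold change stayed between 3.84 and 4.53 in these 4 fits. It also did not pass with limma-voom (0.0732) and on the deposited FPKM (0.0524 to 0.0608).

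Ccl7, a second monocyte attractant of the same gene group, rose in the synovium and came close to the threshold in the ileum. It had 70.1, 48.3 and 72.8 CPM in TNFdARE synovium, against 2.49, 0.390 and 1.83 CPM in WT synovium. In the ileum it had 7.94, 3.10 and 5.13 CPM in TNFdARE, against 1.18, 0.0730 and 0.563 CPM in WT, where the lowest value was a single count. No TNFdARE library overlapped a WT library in either tissue. In the synovium the difference passed (log2 fold change 5.38 ± 0.49, adjusted p = 0.00191). In the ileum its log2 fold change of 3.13 ± 0.70 did not pass (adjusted p = 0.0526). A fit with the replicate number as a block called it (adjusted p = 0.0246), as did one without TNFdARE replicate 2 (adjusted p = 0.0106).

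Ccl12 and Ccl8, the neighbours whose promoters are printed above, rose in the synovium and did not pass the test in the ileum. Ccl12, a ligand of Ccr2 in the mouse, had 5.15, 4.90 and 5.62 CPM in TNFdARE synovium, against 0.623, 0.651 and 1.37 CPM in WT synovium. Ccl8, which in the mouse attracts Ccr8-bearing T cells, had 15.8, 14.9 and 18.2 CPM in TNFdARE synovium, against 1.94, 1.04 and 2.87 CPM in WT synovium. For both genes every TNFdARE library exceeded every WT library, and the log2 fold changes were 2.58 ± 0.33 for Ccl12 (adjusted p = 0.00259) and 3.09 ± 0.31 for Ccl8 (adjusted p = 0.00115). In the ileum Ccl12 had 2.29, 1.90 and 1.05 CPM in TNFdARE, against 1.46, 0.584 and 0.915 CPM in WT. Ccl8 had 31.9, 6.69 and 13.3 CPM in TNFdARE ileum, against 7.48, 5.04 and 4.71 CPM in WT ileum. One TNFdARE ileum library overlapped WT for each gene, replicate 3 for Ccl12 and replicate 2 for Ccl8. Their ileum log2 fold changes were 0.83 ± 0.44 for Ccl12 (adjusted p = 0.246) and 1.60 ± 0.59 for Ccl8 (adjusted p = 0.137), and Ccl8 passed without TNFdARE replicate 2 (adjusted p = 0.0205).

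Ccl5, made by T cells, NK cells and activated stroma and a ligand of Ccr1, rose in the synovium and had no clear direction in the ileum. It had 97.1, 58.7 and 56.1 CPM in TNFdARE synovium, against 9.005, 8.13 and 7.63 CPM in WT synovium, with no overlap (log2 fold change 3.12 ± 0.24, adjusted p = 0.000696). In the ileum it had 76.8, 5.91 and 22.3 CPM in TNFdARE, against 30.2, 25.8 and 31.1 CPM in WT. Replicate 1 lay above all WT ileum libraries and replicates 2 and 3 lay below all of them, so the WT libraries stood inside a wide TNFdARE range. The ileum log2 fold change of 0.28 ± 0.82 (adjusted p = 0.845) had no stable direction: it was -1.02 without TNFdARE replicate 1, -0.32 with the replicate block and -0.37 with limma-voom, none past the threshold.

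Ccl3 and Ccl4, leukocyte attractants that activated macrophages make, had few counts in every group. Ccl3 had 62, 27 and 28 counts in TNFdARE synovium and 11, 7 and 10 counts in WT synovium, or 3.72, 1.56 and 1.62 CPM in TNFdARE, against 0.762, 0.455 and 0.652 CPM in WT. The groups did not overlap, and Ccl3 rose (log2 fold change 1.90 ± 0.46, adjusted p = 0.0241). It did not pass when TNFdARE replicate 1 was left out (adjusted p = 0.0508), when WT replicate 1, 2 or 3 was (0.0527, 0.0694 and 0.0729), or in a fit of all 12 libraries (0.149). In the ileum Ccl3 had 66, 2 and 9 counts in TNFdARE and 5, 3 and 4 counts in WT, too few for the filter. TNFdARE replicate 1 held most of these counts and replicate 2 lay below all WT libraries (two-sided exact permutation test of CPM, p = 0.4, with 0.1 the smallest p that 3 against 3 allow). Ccl4 had 19, 9 and 7 counts in TNFdARE synovium and 10, 5 and 6 counts in WT synovium, which overlapped (exact permutation test, p = 0.5). In the ileum it had 49, 3 and 18 counts in TNFdARE and 14, 8 and 14 counts in WT, with TNFdARE libraries both above and below WT (log2 fold change 0.87 ± 0.80, adjusted p = 0.499).

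The 2 receptors had higher levels in WT synovium than in WT ileum, and both rose in TNFdARE synovium. Ccr2 had 280.4, 263 and 281 CPM in TNFdARE synovium, against 76.2, 79.97 and 68.6 CPM in WT synovium, with little spread in either group. Its log2 fold change of 1.90 ± 0.08 had the smallest adjusted p of the members (6.47e-05). Ccr1, a receptor of Ccl3 and Ccl5 on monocytes and neutrophils, had 61.8, 48.3 and 52.8 CPM in TNFdARE synovium, against 29.9, 37.2 and 35.7 CPM in WT synovium. The groups did not overlap, and the log2 fold change was 0.69 ± 0.12 (adjusted p = 0.00789), which did not pass in a fit of all 12 libraries (adjusted p = 0.193).

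In the ileum both receptors were low in WT and unequal among the TNFdARE libraries. Ccr2 had 107, 23.0 and 56.8 CPM in TNFdARE ileum, against 11.3, 8.76 and 6.96 CPM in WT ileum. Ccr1 had 55.2, 21.9 and 50.01 CPM in TNFdARE ileum, against 13.7, 5.91 and 6.96 CPM in WT ileum. Neither gene overlapped between groups. The log2 fold changes were 2.80 ± 0.58 for Ccr2 and 2.26 ± 0.47 for Ccr1, both with an adjusted p of 0.0515. With the replicate block Ccr1 passed (adjusted p = 0.0166), and without TNFdARE replicate 2 both passed (adjusted p = 0.00339 for Ccr2 and 0.00671 for Ccr1).

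**Figure D2:**
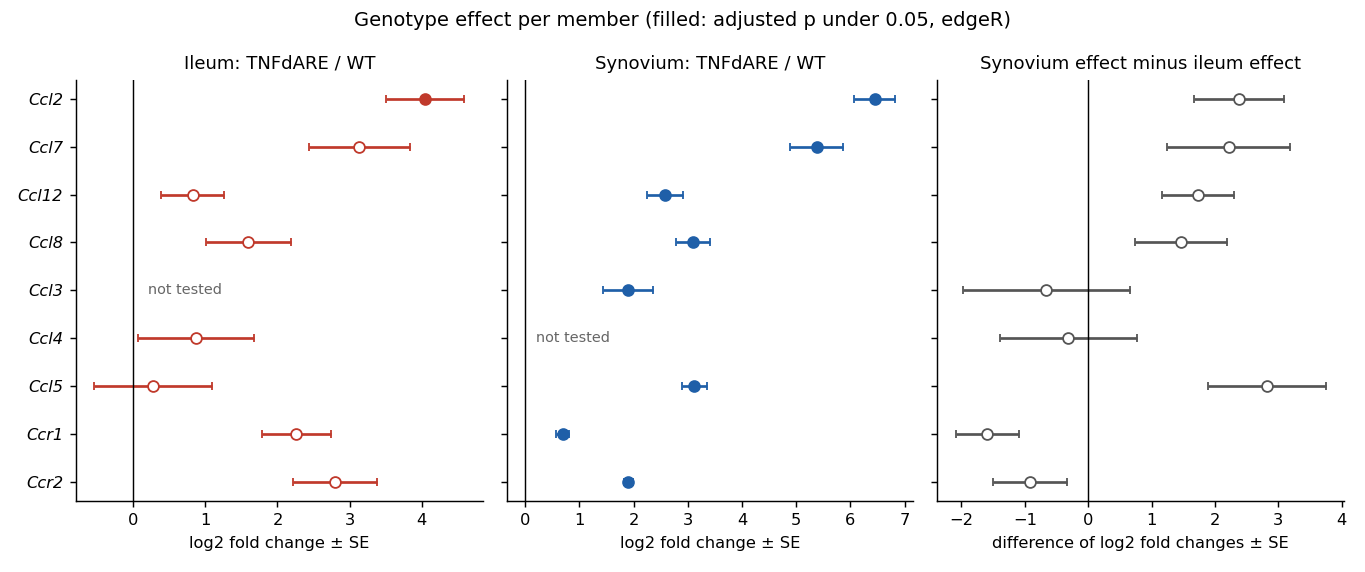
Log2 fold change of TNFdARE over WT with its SE for each member in ileum and synovium, and the difference of the 2 effects, synovium minus ileum; filled points had an adjusted p under 0.05. All 8 members tested in the synovium are filled, Ccl2 alone is filled in the ileum, and no difference between tissues is filled.

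Whether the genotype effect differed between tissues was tested as an interaction over all 12 libraries. None of the 9 members passed, against 12.1% of 16964 genes tested in either direction, and 5 of the 9 had an unadjusted p under 0.05 (5012 of the 16964 genes). The log2 effect of TNFdARE in the synovium minus that in the ileum was 2.37 ± 0.71 for Ccl2 (adjusted p = 0.0545), 2.82 ± 0.93 for Ccl5 (0.0722) and 1.73 ± 0.57 for Ccl12 (0.0723). It was -1.59 ± 0.50 for Ccr1 (0.0611) and -0.92 ± 0.58 for Ccr2 (0.328). The estimates for Ccl7 and Ccl8 were 2.22 ± 0.97 (0.157) and 1.47 ± 0.72 (0.205). With the replicate block, Ccl2 (adjusted p = 0.0208), Ccl5 (0.0428) and Ccr1 (0.0129) passed, and DESeq2 called 5 members. Leaving out 1 library moved the number of members called between 0 and 4, the highest without TNFdARE ileum replicate 2 and 3 without TNFdARE ileum replicate 1.

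Between the tissues of TNFdARE mice, 4 members were higher in synovium, against 31.6% of 16964 genes tested, and the other 5 did not pass. These were Ccl7 (log2 synovium over ileum 3.56 ± 0.53, adjusted p = 0.000151), Ccl2 (2.59 ± 0.41, 0.000211), Ccr2 (2.14 ± 0.41, 0.000883) and Ccl12 (1.57 ± 0.38, 0.00328). Ccl8 did not pass, with a log2 difference of -0.09 ± 0.47 (adjusted p = 0.881) and synovium libraries that lay inside the ileum range. Between the tissues of WT mice, Ccr2 (3.05 ± 0.45, adjusted p = 0.000102) and Ccr1 (1.95 ± 0.37, 0.000619) were higher in synovium, as were 38.2% of all genes tested. Ccl8 (-1.56 ± 0.55, 0.0242) and Ccl5 (-1.81 ± 0.68, 0.0317) were lower in synovium, as were 36% of all genes tested. The Ccl5 difference did not pass without WT ileum replicate 1 or 3 (adjusted p = 0.0549 and 0.0566) or without WT synovium replicate 1, 2 or 3 (0.0599, 0.0763 and 0.0822), nor without a filter on low counts (0.0829) or with limma-voom (0.0864). The Ccl8 difference did not pass without WT ileum replicate 1 (0.0686) or WT synovium replicate 1 or 2 (0.0530 and 0.0856), nor with limma-voom (0.110). Ccl7 did not pass in WT (1.34 ± 0.76, adjusted p = 0.135) but passed with the replicate block (0.0407). In order of mean level, TNFdARE synovium came first and WT ileum last for Ccl2, Ccl7, Ccl3, Ccr1 and Ccr2. Neighbours in that order overlapped for each of these genes: WT synovium and WT ileum for Ccl2 and Ccl7, TNFdARE ileum and both synovium groups for Ccl3 and Ccr1, and WT synovium and TNFdARE ileum for Ccr2.

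Per kilobase of exon, which allows levels of different genes to be compared, the 7 ligands together had 409, 321 and 344 CPM per kb in TNFdARE synovium, against 22.1, 14.0 and 22.2 CPM per kb in WT synovium. They had 208, 41.1 and 84.5 CPM per kb in TNFdARE ileum, against 54.7, 40.2 and 47.0 CPM per kb in WT ileum. TNFdARE ileum replicate 2 thus lay within the WT range in sum, although its mix of ligands was not that of WT. In that library Ccl2 made up 33.9% and Ccl5 15.0% of the ligand sum, while in the 3 WT ileum libraries Ccl2 made up 2.37% to 4.56% and Ccl5 57.5% to 68.9%.

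Ccl5 was the leading ligand in WT tissue and Ccl2 in TNFdARE synovium. Ccl5 averaged 20.2% ± 4.00 in TNFdARE and 46.3% ± 12.8 in WT synovium, and 27.0% ± 11.7 in TNFdARE and 64.4% ± 6.06 in WT ileum (SD, n = 3 each). Ccl2 averaged 44.7% ± 4.06 in TNFdARE and 9.03% ± 3.61 in WT synovium, and 27.4% ± 7.13 in TNFdARE and 3.27% ± 1.15 in WT ileum. In neither tissue did the TNFdARE and WT shares of Ccl2 or of Ccl5 overlap. Ccl7 averaged 22.2% ± 3.89 in TNFdARE and 9.29% ± 5.38 in WT synovium, and 7.25% ± 2.34 in TNFdARE and 1.47% ± 1.23 in WT ileum. No ligand led in all TNFdARE ileum libraries: Ccl5 led in replicate 1 (38.5%), Ccl2 in replicate 2 (33.9%) and Ccl8 in replicate 3 (30.9%). Ccl8 averaged 30.9% ± 0.898 in TNFdARE ileum, against 23.6% ± 3.65 in WT ileum, and 9.01% ± 1.41 in TNFdARE against 19.0% ± 5.60 in WT synovium. Its share lay between 30.1% and 31.9% in the 3 TNFdARE ileum libraries, although its level differed 4.77-fold among them. The shares are parts of 1 sum, so a lower share of Ccl5 in TNFdARE synovium went with a higher level. No test was run on them.

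**Figure D3:**
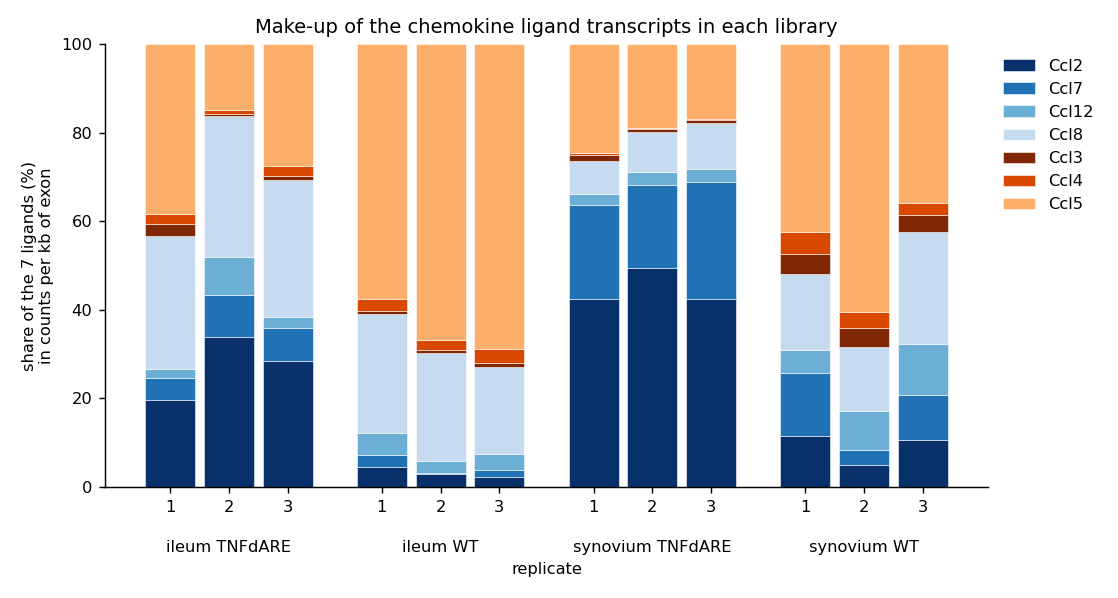
Share of each of the 7 ligands in their summed counts per kb of exon, in percent, for each library, as stacked bars from 0 to 100. Ccl5 fills the largest part of the bars of both WT groups, Ccl2 that of the TNFdARE synovium bars, and Ccl8 takes 30.1% to 31.9% of the 3 TNFdARE ileum bars.

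By the median over members, the TNFdARE ileum libraries were less alike than those of the other groups. Replicate 1 was the highest of the 3 in all 9 members and replicate 2 the lowest in 8. The same numbers often stood out elsewhere: replicate 1 was the highest in 7 members in WT ileum and in 5 in each synovium group, and replicate 2 the lowest in 6, 6 and 5 members of WT ileum, TNFdARE synovium and WT synovium. The highest value was 2.17 to 29.8 times the lowest in TNFdARE ileum, with a median over members of 4.66. This ratio was 1.21 to 16.1 in WT ileum (median 1.69), 1.07 to 2.81 in TNFdARE synovium (1.28) and 1.17 to 6.39 in WT synovium (2.13). Ccl7, Ccl2 and Ccl12 differed more in a WT group than in TNFdARE ileum. For Ccl7 the ratio was 16.1 in WT ileum and 6.39 in WT synovium, against 2.56 in TNFdARE ileum. Within TNFdARE ileum, summed markers of monocytes and macrophages, of neutrophils, and of T and NK cells were each highest in replicate 1 and lowest in replicate 2. Summed monocyte and macrophage markers reached 5578, 1752 and 3570 CPM in TNFdARE ileum replicates 1, 2 and 3, against 1228 to 1350 CPM in WT ileum. In the synovium they reached 5861 to 7116 CPM in TNFdARE and 2284 to 2974 CPM in WT. A pair of genes carried much of the ileum sums, Lyz2 with a mean of 2004 CPM in TNFdARE ileum, against 109 CPM in WT ileum, and Plac8 with 608 CPM in TNFdARE ileum, against 805 CPM in WT ileum. Without both the sums were 1431, 624 and 1010 CPM in TNFdARE ileum, against 332 to 396 CPM in WT ileum. All 14 markers of this list had counts in every library; in the ileum 4 rose, 0 fell and 10 did not pass, and in the synovium 8 rose, 1 fell and 5 did not pass. Summed neutrophil markers reached 450, 78.2 and 252 CPM in TNFdARE ileum replicates 1, 2 and 3, against 6.79 to 11.6 CPM in WT ileum. Of 6 neutrophil markers tested in the ileum, 4 rose and 2 did not pass. In the synovium the neutrophil sums overlapped, at 1398 to 5555 CPM in TNFdARE and 1432 to 4607 CPM in WT, and none of 10 markers passed. Stromal markers moved too: in the ileum fibroblast markers summed to 1351 to 1525 CPM in TNFdARE and 821 to 956 CPM in WT, and 3 of 6 rose. In the synovium 2 of these 6 rose, Pdpn (log2 fold change 2.03) and Thy1 (1.28), and 4 did not pass, with overlapping sums. Of 5 endothelial markers 1 rose in the ileum and 3 fell in the synovium. Eosinophil markers summed to 10.2 to 17.8 CPM in TNFdARE ileum, against 4.597 to 6.12 CPM in WT ileum, where 1 of 2 tested rose, and overlapped in the synovium. The 6 ileum epithelium markers summed to 6330 to 7672 CPM in TNFdARE ileum, against 8713 to 9759 CPM in WT ileum, and none passed. Mast cell markers summed to 45.5 to 85.6 CPM in TNFdARE synovium, against 113 to 122 CPM in WT synovium. Kit made up most of these sums, with means of 48.7 CPM in TNFdARE and 94.8 CPM in WT synovium. Bone marrow and erythroid markers overlapped between genotypes in both tissues, and none of the mast cell, bone marrow or erythroid markers passed. The part of these cells in the levels of the members was not tested.

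T and NK cells are known to make Ccl5. All 12 of their markers had counts in every library and summed to 53.0, 66.8 and 65.1 CPM in TNFdARE synovium, against 55.6, 62.9 and 58.6 CPM in WT synovium, while Ccl5 was 8.55 times higher in mean CPM in TNFdARE. Of the 11 tested in the synovium, Cd4 rose (log2 fold change 0.86 ± 0.12, adjusted p = 0.00384), 4 fell and 6 did not pass. Cd4 alone had 35.4, 42.4 and 40.3 CPM in TNFdARE synovium, against 19.3, 24.9 and 22.1 CPM in WT synovium. The sum without Cd4 was lower in TNFdARE synovium, at 17.6, 24.4 and 24.9 CPM, against 36.3, 38.0 and 36.5 CPM in WT synovium. In the ileum the same markers summed to 254, 82.01 and 225 CPM in TNFdARE, against 180.1, 125 and 172 CPM in WT, and none of the 12 passed. TNFdARE ileum replicate 2, the library with the least Ccl5, was the lowest in this sum. The part of these cells in the level of Ccl5 was not tested. Skeletal muscle markers, a tissue carried along in dissection of joints, summed to 6299, 3687 and 1556 CPM in TNFdARE synovium replicates 1, 2 and 3, against 9698 to 17500 CPM in WT synovium, and 1 of 10 fell while 9 did not pass. Among the 3 TNFdARE synovium libraries, which differed several-fold in muscle markers, the members differed from 1.07-fold (Ccr2) to 2.81-fold (Ccl4), with a median of 1.28-fold. Ccl2 differed 1.19-fold, Ccl7 1.51-fold, Ccl5 1.73-fold and Ccl3 2.39-fold. Replicate 1, with the most muscle signal, was the highest in 5 members, and replicate 3, with the least, in 4. Adipocyte markers were lower too, at 164 to 257 CPM in TNFdARE synovium, against 424 to 591 CPM in WT synovium, and all 4 fell. The part of muscle and fat in the fold changes between TNFdARE and WT synovium was not tested.

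**Figure D4:**
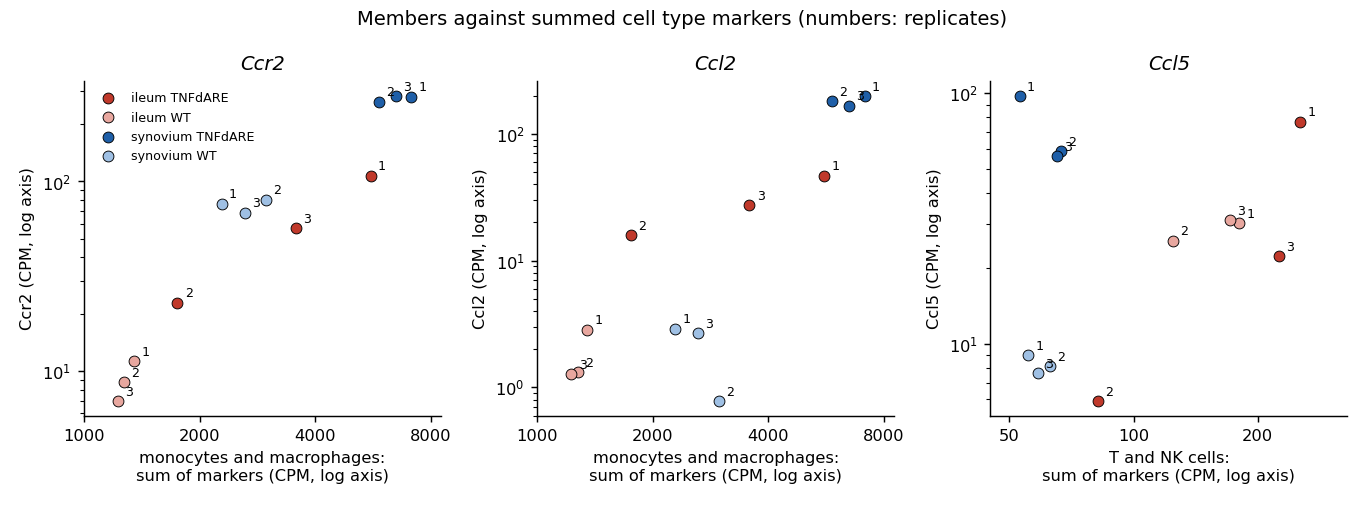
CPM of Ccr2 and Ccl2 against summed monocyte and macrophage markers, and of Ccl5 against summed T and NK cell markers, for the 12 libraries on log axes, with replicate numbers. The monocyte and macrophage sums include Lyz2 and Plac8. Ccr2 is ordered as the marker sum within the ileum; Ccl2 of WT synovium stays at 0.781 to 2.91 CPM at marker sums of 2284 to 2974 CPM; and Ccl5 separates the synovium groups at overlapping T and NK sums, which include Cd4 (without it they are 17.6 to 24.9 CPM in TNFdARE synovium, against 36.3 to 38.0 CPM in WT synovium).

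Beyond the 7 ligands, the CC ligands that rose were Ccl9, Ccl17, Ccl20 and Ccl22 in the synovium and Ccl20 in the ileum. Of 13 other ligands listed, 10 were tested in the synovium, where 4 rose, 1 fell and 5 did not pass, with a median log2 fold change of -0.05. In the ileum 9 were tested, 1 rose and 8 did not pass, with a median of -0.20. Ccl17, an attractant of Ccr4-bearing T cells that dendritic cells make, had 28.9, 43.5 and 23.6 CPM in TNFdARE synovium, against 0.762, 0.260 and 1.76 CPM in WT synovium (log2 fold change 5.12 ± 0.54, adjusted p = 0.00255). Ccl9, a Ccr1 ligand of myeloid cells in the mouse, had 168, 117 and 153 CPM in TNFdARE synovium, against 51.3, 47.4 and 55.7 CPM in WT synovium (1.53 ± 0.14, adjusted p = 0.000869). Neither gene overlapped between the groups. Ccl20, the epithelial ligand of Ccr6, was the one that rose in the ileum, with 33.9, 12.95 and 19.5 CPM in TNFdARE, against 3.81, 2.41 and 2.18 CPM in WT (2.98 ± 0.42, adjusted p = 0.0404). Like Ccl2, it did not pass when TNFdARE replicate 3 (adjusted p = 0.155) or WT replicate 1, 2 or 3 (0.153, 0.1498 and 0.174) was left out, with limma-voom (0.0706) or on FPKM (0.0524 to 0.0608). In the synovium Ccl20 had 69, 14 and 71 counts in TNFdARE and 0 counts in all 3 WT libraries, so it was at least 45.2-fold higher, set against 3 counts over the WT group.

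Of 11 other and atypical CC receptors, 8 were tested in the synovium, where 2 rose, 3 fell and 3 did not pass (median log2 fold change -0.56). In the ileum 10 were tested and none passed, the median log2 fold change being 1.27. The receptors that fell in the synovium included atypical ones, which take up chemokines without signalling through G proteins. Ackr2, which scavenges inflammatory CC chemokines, had 18.5, 21.9 and 14.0 CPM in TNFdARE synovium, against 28.3, 29.7 and 36.4 CPM in WT synovium (log2 fold change -0.77 ± 0.18, adjusted p = 0.0226). Ackr4, which takes up Ccl19, Ccl21 and Ccl25, had 17.3, 23.3 and 16.0 CPM in TNFdARE, against 30.7, 36.6 and 32.9 CPM in WT synovium (-0.79 ± 0.15, adjusted p = 0.0116). Ccr3, the eotaxin receptor of eosinophils, had 2.94, 3.69 and 3.88 CPM in TNFdARE, against 5.20, 14.9 and 8.68 CPM in WT synovium (-1.42 ± 0.38, adjusted p = 0.0371). None of these 3 overlapped between the groups. The call of Ackr2 ended without TNFdARE synovium replicate 1 or 3 (0.0594 and 0.0525) or WT synovium replicate 3 (0.0735). The call of Ccr3 ended without any of the synovium libraries (0.0654 to 0.104) but WT replicate 1. Ackr1, which carries chemokines across venular endothelium, rose by 0.46 ± 0.13 (adjusted p = 0.0405), at 30.0, 23.4 and 23.9 CPM in TNFdARE against 21.1, 17.0 and 19.3 CPM in WT synovium. Ccrl2, which binds chemerin and does not signal, rose by 0.70 ± 0.18 (adjusted p = 0.0303), at 7.91, 6.74 and 7.82 CPM in TNFdARE against 4.36, 5.60 and 4.11 CPM in WT synovium. The call of Ackr1 ended without any of the synovium libraries (0.0544 to 0.113) but TNFdARE replicate 2, and that of Ccrl2 without TNFdARE replicate 1 or 3 (0.0814 and 0.0944) or WT replicate 1 or 3 (0.0854 and 0.101). In a fit of all 12 libraries Ackr1, Ackr2 and Ccrl2 did not pass (0.214, 0.0508 and 0.292), and Ccr3 did not pass with limma-voom (0.0728).

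A further list held 12 genes that carry or limit chemokine receptor signals inside leukocytes, with Rgs1 among those that limit them. In the synovium 6 of the 12 rose, 0 fell and 6 did not pass (median log2 fold change 0.60). In the ileum 2 rose and 10 did not pass (median 1.66). Pik3r5, a regulatory subunit of PI3Kγ, averaged 110 ± 9.31 CPM in TNFdARE synovium, against 40.3 ± 5.44 CPM in WT synovium (SD, n = 3 each; log2 fold change 1.47 ± 0.12, adjusted p = 0.000527). Rgs1, which shortens G protein signals of chemokine receptors, averaged 14.6 ± 0.603 CPM in TNFdARE synovium, against 3.18 ± 1.41 CPM in WT synovium (2.23 ± 0.28, adjusted p = 0.00227). In the ileum Pik3r6, the other regulatory subunit of PI3Kγ, averaged 15.3 ± 9.61 CPM in TNFdARE mice, against 2.85 ± 0.508 CPM in WT mice (2.43 ± 0.49, adjusted p = 0.0472). Was, an actin regulator of blood cells, averaged 22.2 ± 10.8 CPM in TNFdARE ileum, against 5.33 ± 0.468 CPM in WT ileum (2.07 ± 0.39, adjusted p = 0.0445). Both ileum calls ended without TNFdARE replicate 3 (0.155 for both genes) and without each of the WT libraries (0.156 to 0.178), and that of Was also without TNFdARE replicate 1 (0.0545). Neither Pik3r6 nor Was passed there without a filter on low counts (0.0717 and 0.0581) or with limma-voom (0.104 and 0.0956). With the replicate block Pik3r5 passed in the ileum (adjusted p = 0.0264) and Was in the synovium (0.00591).

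Members were also compared with each other and with 13015 genes by their log2 CPM over the 12 libraries, which share genotype, tissue and depth, so the correlations are descriptions. Ccl2 and Ccl7 were most like Cxcl1, a neutrophil attractant (Pearson r = 0.971 and 0.980, n = 12 libraries). Ccl7 was also close to Ccl2 (0.958). Ccr2 was most like Evi2a, Dram1 and the complement receptor gene C5ar1 (0.993 each), Ccr1 like Tnfaip2 (0.980), and Ccl8 like Tank (0.973) and the B cell attractant Cxcl13 (0.970). For Ccl3, Ccl4 and Ccl5 the closest genes reached 0.944 (Hnrnph2), 0.890 (Ube2f) and 0.925 (Med15). Over the 12 libraries r lay between 0.550 and 0.715 for the 3 pairs of Ccl3, Ccl4 and Ccl5, and between 0.694 and 0.958 for the 6 pairs of Ccl2, Ccl7, Ccl12 and Ccl8. After the group means were removed the order turned, with r between 0.944 and 0.973 for Ccl3, Ccl4 and Ccl5. It was 0.453 to 0.874 for the other 4 ligands and 0.0830 to 0.831 over the 12 pairs between the 2 sets. In TNFdARE ileum Ccl3, Ccl4 and Ccl5 differed 29.8-, 14.7- and 12.98-fold between replicates 1 and 2, with 2 and 3 counts of Ccl3 and Ccl4 in replicate 2. In the other groups these genes differed at most 2.81-fold between libraries (Ccl4 in TNFdARE synovium). Their high r may thus rest largely on TNFdARE ileum, and co-variation within each group was not tested.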

How the data were processed

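The deposited files hold raw counts by Ensembl gene from the authors, which were used for every comparison, and FPKM for 17046 genes, used as an alternative. Per the submitters' processing notes, cutadapt 1.15, Bowtie2 2.3.3.1 and GRCm38 were used; not given in the sources used here are the counting tool, its strand setting and the annotation. The deposited FPKM held no 0, although 5756 of its values belonged to a count of 0, so a further adjustment had been made. Per the labels' protocols, libraries were made with a stranded poly-A kit and read as single reads.

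Symbols, exon lengths and coordinates came from GENCODE for GRCm38, which matched 98.9% of the identifiers. In R 4.3.3 with edgeR 4.0.16, each tissue was fitted alone on its 6 libraries (filterByExpr with a count minimum of 10, TMM, robust quasi-likelihood test, two-sided, Benjamini-Hochberg over all genes tested, threshold 0.05). The interaction and the comparisons between tissues used a model of the 4 groups over 12 libraries. CPM used TMM over the 12 libraries, and CPM per kb divided it by exon length. DESeq2 1.42.0 and limma 3.58.1 (voom, and FPKM with a pseudocount of 1 or 0.1) were alternatives, with other scalings and filters, a replicate block, a fit of all libraries and the omission of each library. A count of 0 allows up to 3 counts, for counting error only. The fits were tested on simulated data.

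Replicate numbers are shared by the labels of TNFdARE and WT. Deviations from the group mean correlated between equal numbers at 0.233, 0.257 and 0.158 in the ileum (10474 genes with a mean log2 CPM above 3) and at 0.610, 0.360 and 0.231 in the synovium (10781 genes). All lay above a limit of 0.1, but over genes above 1 the third ileum pair fell to 0.0869. Unequal numbers were not compared, and the labels do not say that equal numbers are pairs, so a pairing is possible but not established. The reported fits have no block, and values with it are given where it changed a call. Between replicates of a group the spread was 11.2 to 92.9 times that of Poisson counts, by the mean chi-square per gene, so none was the same library sequenced again. This spread cannot tell whether libraries shared RNA or an animal, and the labels call them biological replicates.

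The members, lists and tests were chosen with earlier results of these data known. The text names the members, Tnf, Ccr3, Ackr1, Ackr2 and Ccrl2, from each list of pathway genes the 2 called genes with the smallest adjusted p in each tissue, and the 3 genes most like each member; not every such gene is reported, and 1 listed gene is not reported here and was left out of its list. The 12 lists of cell type markers are given as sums, calls or both. Sums without Cd4, or without Lyz2 and Plac8, were added after the values were seen.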

Additional observations from a re-analysis of the deposited data

Results flagged for a closer look

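Of 32 other CC ligands, receptors and signalling genes tested, 7 (21.9%) had an effect of TNFdARE that differed between the tissues by edgeR's interaction test over the 12 libraries, against 12.1% of all genes tested. The log2 effect in the synovium minus that in the ileum was -2.78 ± 0.55 for Ccr3 (SE, adjusted p = 0.0115), with group means of 3.50 CPM in TNFdARE synovium, against 9.59 CPM in WT synovium, and 2.20 CPM in TNFdARE ileum, against 0.871 CPM in WT ileum. For Ackr2 it was -1.73 ± 0.41 (adjusted p = 0.0243), with 18.1 CPM in TNFdARE synovium, against 31.5 CPM in WT synovium, and 3.45 CPM in TNFdARE ileum, against 1.81 CPM in WT ileum. This difference did not pass with limma-voom (0.0581) or without any 1 of 5 libraries (0.0524 to 0.0650). For Ccl17 it was 3.55 ± 0.97 (adjusted p = 0.0401), with 32.0 CPM in TNFdARE synovium, against 0.928 CPM in WT synovium, and 2.83 CPM in TNFdARE ileum, against 0.959 CPM in WT ileum. It did not pass without a filter on low counts (0.0818), with limma-voom (0.0889), with the replicate block (0.0585) or in 7 of the 12 fits that left out 1 library (0.0622 to 0.123). For Rgs1 it was 2.42 ± 0.38 (adjusted p = 0.00457), with 14.6 CPM in TNFdARE synovium, against 3.18 CPM in WT synovium, and 16.5 CPM in TNFdARE ileum, against 19.2 CPM in WT ileum. The differences of Ccr3 and Rgs1 passed in all 22 alternatives run. The other 3 are named because they were called. For Ccl24 it was -2.53 ± 0.70 (adjusted p = 0.0401), with 2.68 CPM in TNFdARE synovium, against 5.62 CPM in WT synovium, and 0.734 CPM in TNFdARE ileum, against 0.258 CPM in WT ileum. It did not pass in 10 of the 22 alternatives (0.0513 to 0.108). Ccl24 had only 7, 8 and 17 counts in TNFdARE ileum and 3, 1 and 7 counts in WT ileum. For Ccr6 it was -3.77 ± 0.96 (adjusted p = 0.0321), with 0.969 CPM in TNFdARE synovium, against 1.496 CPM in WT synovium, and 7.56 CPM in TNFdARE ileum, against 0.850 CPM in WT ileum. It did not pass in 12 alternatives (0.0526 to 0.143). The 3 TNFdARE ileum libraries were unequal, with 15.2, 1.90 and 5.55 CPM of Ccr6 in replicates 1, 2 and 3. For Prex1 it was -1.76 ± 0.43 (adjusted p = 0.0287), with 183 CPM in TNFdARE synovium, against 187 CPM in WT synovium, and 81.2 CPM in TNFdARE ileum, against 24.5 CPM in WT ileum. It did not pass in 9 alternatives (0.0573 to 0.0663).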

How the results depend on the processing

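The 8 members called in the synovium passed under every alternative run but for Ccl3 and Ccr1, named above; Ccr3 (0.0548 and 0.0603 with a pseudocount of 1) and Ackr1 (0.0508 to 0.0585) did not pass there on FPKM, nor did Pik3r6 and Was in the ileum (0.0663 to 0.0824), and no member called in a genotype comparison changed direction. In the ileum 1 member and 879 genes were called. There 4 members and 1379 genes were called by library size alone, 5 and 2703 with DESeq2, 4 and 2722 in a fit of all 12 libraries, 0 and 0 with limma-voom, 0 members on the deposited FPKM (0, 1 and 3 genes with a pseudocount of 1, of 0.1, and of 1 with a filter), and 0 to 5 members and 0 to 4633 genes when 1 library was left out. Library size alone moved the median of all genes to a log2 fold change of 0.11 in the ileum, with 1218 genes higher and 161 lower, and to 0.17 for synovium over ileum in WT, and gave 626 higher and 1380 lower calls in the interaction, where TMM gave 896 and 1154. In the synovium 2141 to 2927 genes were called with 1 library left out. For the interaction DESeq2 called 3192 genes, and leaving out 1 library gave 1015 to 3506; members called numbered 1 with RLE factors or a stricter filter, 5 with DESeq2, 4, 3 and 4 on FPKM (in the same order), and 0 to 4 with 1 library left out. Between WT tissues 2 members were called with limma-voom and 2 to 4 with 1 library left out. With the replicate block 3 members were called in the ileum and 3 in the interaction; it changed no other call of a member or named gene than those given with it and Ccrl2 in the ileum (0.0494).

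Estimates that crossed 0 had not passed the test, and the cause was not tested. For Ccl5 in the ileum the values were -0.37 with limma-voom, -0.32 with the block, -0.45, -0.50 and -0.45 on FPKM and -1.02 without TNFdARE replicate 1; for Ccl4 there, -0.13 on FPKM with 0.1 and -0.18 without TNFdARE replicate 1, to 1.38 without another library. The interaction of Ccl3 was 0.35 with limma-voom, 0.60, 0.97 and 0.60 on FPKM and 1.502 without TNFdARE ileum replicate 1, down to -1.19 without another. That of Ccl4 was 0.19, then 0.22, 0.79 and 0.22, 0.82 without that library and 0.14 without WT synovium replicate 1, down to -0.87, and that of Ccr2 0.29 and 0.29 on FPKM with 1. Synovium over ileum, Ccl8 of TNFdARE was 0.16 with limma-voom, 0.15 with the block, 0.26, 0.28 and 0.26 on FPKM and 0.77 without TNFdARE ileum replicate 1, down to -0.40; Ccl3 of TNFdARE was -0.074 to 2.60 with 1 library left out. In WT, Ccl12 was -0.62 to 0.21 with 1 library left out, and Ccl2 was -0.036, -0.13 and -0.036 on FPKM and -0.084 to 0.69 with 1 left out. On FPKM the shares of 3 ligands moved, Ccl12 to 2.16% in TNFdARE synovium, Ccl8 to 33.2% in TNFdARE ileum and Ccl3 to 5.00% in WT synovium. Among the members, depth limits Ccl3, Ccl4 and Ccl7, with as few as 2, 3 and 1 counts in a library.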
